A study of Mus musculus with 4 samples.

Results

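The S100 family is a group of small calcium-binding proteins, and 10 of its genes, S100a1, S100a4, S100a6, S100a8, S100a9, S100a10, S100a11, S100a13, S100a14 and S100a16, were followed here out of 22594 mouse genes with a value. They were taken by name, with earlier results of these data known. The total RNA of 2 mouse lines labelled as endometrial cancer cells, with uterine cancer as their source, was sequenced in 4 libraries, replicates 1 and 2 of MSH2KO21B and replicates 1 and 2 of MECPK. The labels give no genotype, treatment, passage or culture condition for either line, and do not say whether a line is a clone or whether one derives from the other, so the names are used only as names. No statement of why the lines were compared is given in the sources used here.

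S100 proteins carry a pair of EF-hand calcium-binding loops and usually work as dimers. When calcium rises, most of them open a binding surface for a partner, often an annexin, a cytoskeletal protein or a membrane channel, and some are also released from cells and act on receptors such as RAGE and TLR4. Many are abundant in epithelia, where they are used as markers of squamous differentiation, stress or invasion. Most of the genes lie side by side on mouse chromosome 3, next to the genes of the cornified envelope.

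Values are TPM, the usual length-corrected unit, a share of each library that is already divided by transcript length, so levels of different genes are set side by side in TPM. Ranks and ratios between genes are limited by the short coding sequences of the members, whose TPM depends on the fragment length assumed by the authors, which is not given. The depth of the libraries is unknown because TPM keeps none. Differences are MSH2KO21B minus MECPK in log2(TPM + 1), with the standard error (SE) of the limma fit over all genes, and "called" means a Benjamini-Hochberg adjusted p under 0.05 over all 11921 genes tested. On this scale a change of a low gene comes out too small. The labels do not say whether replicates were separate cultures, so p-values measure the spread between these libraries, which may be technical. In bulk RNA, fewer cells expressing a gene and less of its RNA per cell cannot be told apart.

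The promoters of 8 of the 10 genes were matched by symbol in RefSeq sequences of build GRCm38.p6, in 9 windows of 250 bases before the start site. S100a10 and S100a14 had no entry. The sequences below are shown because they belong to the members on which the comparison turns, a neighboring pair that moved in opposite directions (S100a1 and S100a13), the member with the largest drop in TPM (S100a6), a member that rose (S100a4) and the most abundant member that was not called (S100a11). The first is the stretch of 104 bases between the start sites of S100a1 and S100a13 (chr3:90514331-90514434, plus strand), from which S100a1 is read to the left and S100a13 to the right. The others are plus-strand windows of S100a4 (chr3:90603520-90603769), S100a6 (chr3:90612644-90612893) and S100a11 (chr3:93520246-93520495). Capitals mark the letters TATAAA of the TATA box, the GC box GGGCGG, the box named CCAAT and, for AP-1, TGANTCA, each searched on both strands. None of these overlapped another in the windows shown.
S100a1-S100a13: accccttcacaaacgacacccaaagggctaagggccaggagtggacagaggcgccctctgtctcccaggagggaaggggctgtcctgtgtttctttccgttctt
S100a4: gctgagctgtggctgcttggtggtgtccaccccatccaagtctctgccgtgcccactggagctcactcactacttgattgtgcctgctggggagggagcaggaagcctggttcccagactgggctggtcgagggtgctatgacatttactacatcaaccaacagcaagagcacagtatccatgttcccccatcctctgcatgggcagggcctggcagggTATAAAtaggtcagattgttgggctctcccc
S100a6: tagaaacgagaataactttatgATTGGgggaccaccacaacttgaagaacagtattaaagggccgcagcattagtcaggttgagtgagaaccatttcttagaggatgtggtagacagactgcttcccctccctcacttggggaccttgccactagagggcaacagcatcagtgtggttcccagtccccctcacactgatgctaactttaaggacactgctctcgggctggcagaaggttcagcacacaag
S100a11: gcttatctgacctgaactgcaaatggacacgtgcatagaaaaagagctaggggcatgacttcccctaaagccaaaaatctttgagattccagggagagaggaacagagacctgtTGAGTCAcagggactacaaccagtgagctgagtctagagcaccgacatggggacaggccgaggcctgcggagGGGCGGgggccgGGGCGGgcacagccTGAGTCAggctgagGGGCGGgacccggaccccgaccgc

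The windows differed in these motifs. S100a4 held TATAAA beginning 31 bases before its start site, and S100a8 held it at 30 bases; no other member window did, 2 of 9 in all. The S100a11 window held GGGCGG at 64, 52 and 24 bases and TGANTCA at 136 and 38 bases before the start. GGGCGG was also in a window of S100a16 and in that of S100a9, 3 of 9 in all. TGANTCA was also in that window of S100a16, 2 of 9 in all. The S100a6 window held CCAAT, on the opposite strand, at 228 bases and none of the other motifs. The stretch between S100a1 and S100a13 held none of them. Over 32851 promoter windows of the same length, TATAAA was in 12.4%, GGGCGG in 32.7%, CCAAT in 33.9% and TGANTCA in 6.75%. A match describes letters and shows no binding, and no match says only that these letters are not in this window.

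The 10 genes together held 13432 and 13278 TPM in MSH2KO21B, against 15834 and 15640 TPM in MECPK, which is 1.34% and 1.33% against 1.58% and 1.56% of all TPM. Of the 10, 4 rose in MSH2KO21B (S100a4, S100a9, S100a10 and S100a13), 4 fell (S100a1, S100a6, S100a14 and S100a16), and 2 were not called (S100a8 and S100a11). Among all genes tested 76.2% were called, 46.6% higher and 29.7% lower, so a count of 8 called among 10 is near the background and says nothing particular of the family. The share of calls that were higher was 61.1% over all genes without rescaling, 48.1% with quantile-normalized values and 48.9% with median-ratio scaling, and the median gene differed by 0.19, -0.03 and -0.01. The 4 rises and 4 falls were called in the same directions under all 3 scalings. Of these, S100a9 passed the filter only through MSH2KO21B, which set its direction. The median difference of the 10 was 0.10, against 0.19 over all genes tested. The MSH2KO21B and MECPK libraries did not overlap for 9 of the 10 genes, against 88.9% of all genes tested.

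**Figure D1:**
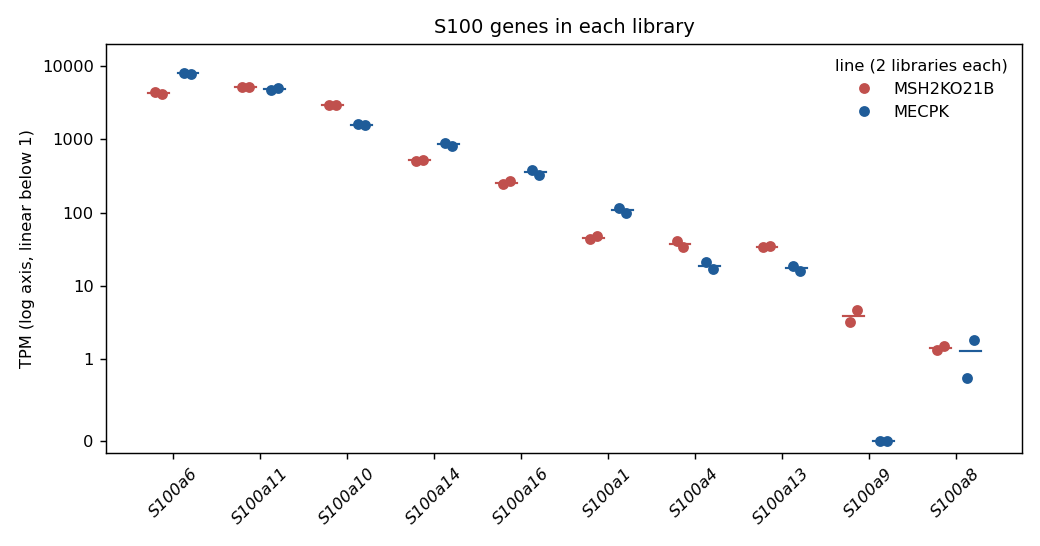
TPM of the 10 S100 genes (y axis, logarithmic above 1 TPM) in each library, with points for libraries and short lines for the mean of each line. S100a6, S100a11 and S100a10 are at 1570 TPM or more in all 4 libraries, S100a8 is at 1.84 TPM or less, and S100a9 is listed at 0 in both MECPK libraries.

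The most abundant members were S100a6, S100a11 and S100a10, and their balance differed between the lines. S100a6 (ENSMUSG00000001025.8, chromosome 3, 90612882 to 90624181), also called calcyclin, is a dimer that binds the ubiquitin ligase adaptor Cacybp. It had 4482 and 4172 TPM in MSH2KO21B, against 8135 and 7771 TPM in MECPK. Both MSH2KO21B libraries lay under both MECPK libraries, and the gene fell by 0.88 on the log2 scale (SE 0.07, limma adjusted p = 0.000341). Among all genes by TPM it ranked 17 and 19 in MSH2KO21B, against 4 and 5 in MECPK. Its TPM was divided evenly over 3 transcripts with 1 coding sequence, so the sum is the only informative value.

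S100a11 (ENSMUSG00000027907.4, chromosome 3, 93520488 to 93526287) binds annexin A1 and takes part in keratinocyte growth control. It had 5123 and 5231 TPM in MSH2KO21B, against 4652 and 5019 TPM in MECPK. The difference of 0.10 (SE 0.06) was not called (limma adjusted p = 0.211), with a 95% interval of -0.07 to 0.27, and it was -0.12 after median-ratio scaling. A processed pseudogene, S100a11-ps on chromosome 12, is annotated and was not analysed here; reads shared with it cannot be told apart from those of S100a11. S100a11 was the most abundant member in MSH2KO21B and S100a6 in MECPK. The ratio of S100a6 to S100a11 TPM was 0.875 and 0.798 in MSH2KO21B, against 1.75 and 1.55 in MECPK.

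S100a10 (ENSMUSG00000041959.14, chromosome 3, 93555080 to 93564643), or p11, does not bind calcium and forms a tetramer with annexin A2 that carries channels and plasminogen-binding sites to the cell surface. It had 2945 and 2967 TPM in MSH2KO21B, against 1612 and 1570 TPM in MECPK. The MSH2KO21B libraries were higher without overlap, and the gene rose by 0.89 (SE 0.05, limma adjusted p = 0.000123). Its partner gene Anxa2 had 1720 and 1686 TPM in MSH2KO21B, against 1054 and 1042 TPM in MECPK, and rose by 0.70 (SE 0.04, limma adjusted p = 0.000209). The ratio of S100a10 to Anxa2 TPM was 1.71 and 1.76 in MSH2KO21B and 1.53 and 1.51 in MECPK, so it differed less between the lines than either gene.

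**Figure D2:**
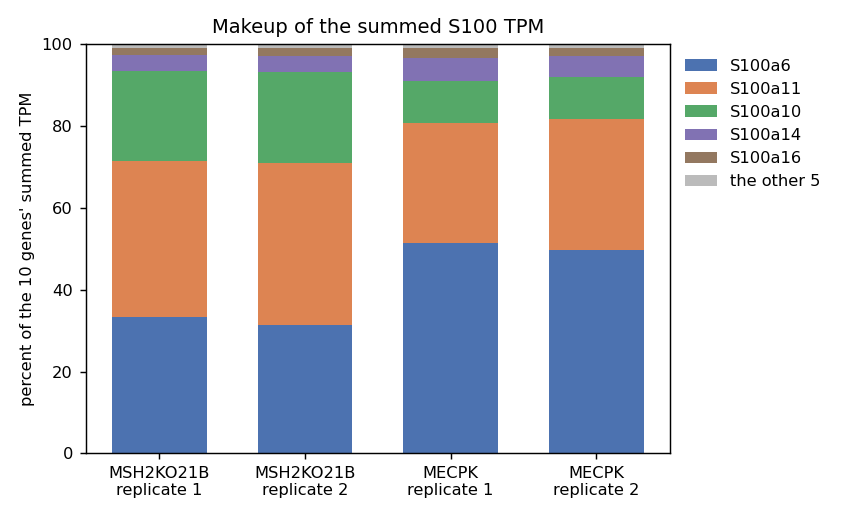
Share of the summed TPM of the 10 S100 genes (y axis, percent) in each library. S100a6, S100a11, S100a10, S100a14 and S100a16 are drawn separately, and the remaining members are pooled. S100a6 holds 33.4% and 31.4% in MSH2KO21B and 51.4% and 49.7% in MECPK, while S100a11 holds 38.1% and 39.4% in MSH2KO21B and 29.4% and 32.1% in MECPK.

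As the stacked shares of summed S100 TPM show, S100a11 took the largest share in MSH2KO21B and S100a6 in MECPK. The 3 most abundant members made up nearly all of the sum in every library, and S100a14 took most of the rest, with 3.83% and 3.89% in MSH2KO21B and 5.66% and 5.21% in MECPK.

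The next members by level, S100a14 and S100a16, are genes of epithelial cells that lie side by side, and both fell in MSH2KO21B. S100a14 (ENSMUSG00000042306.11, chromosome 3, 90526856 to 90528837) had 514 and 517 TPM in MSH2KO21B, against 896 and 815 TPM in MECPK. The difference was -0.73 (SE 0.06, limma adjusted p = 0.000493), and the libraries of the lines did not overlap. Its 2 coding sequences moved the same way: the longer one, of 312 bases, averaged 407 ± 5.41 TPM in MSH2KO21B and 714.5 ± 66.3 TPM in MECPK (SD, n = 2 each), and the shorter one, of 165 bases, averaged 108 ± 3.73 TPM in MSH2KO21B and 141 ± 8.75 TPM in MECPK.

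S100a16 (ENSMUSG00000074457.10, chromosome 3, 90537254 to 90543151) had 247 and 267 TPM in MSH2KO21B, against 383 and 330 TPM in MECPK. It had the smallest difference of the called members, -0.47 (SE 0.09, limma adjusted p = 0.00806). Of its 7 transcripts, 6 shared a coding sequence of 372 bases, which summed to 215 ± 1.47 TPM in MSH2KO21B and 262 ± 21.2 TPM in MECPK (SD, n = 2 each). The remaining transcript, with an annotated coding sequence of 218 bases, had 30.3 and 53.0 TPM in the MSH2KO21B libraries, against 106 and 83.0 TPM in the MECPK libraries. This transcript made most of the spread between the MSH2KO21B libraries. The ratio of S100a14 to S100a16 TPM was 2.08 and 1.93 in MSH2KO21B and 2.34 and 2.47 in MECPK.

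S100a1 and S100a13 are transcribed away from each other from GENCODE M21 start sites 0.043 kb apart, and they moved in opposite directions. S100a1 (ENSMUSG00000044080.9, chromosome 3, 90511034 to 90514392, minus strand), best known from striated muscle, where it acts on the ryanodine receptor and the calcium pump of the sarcoplasmic reticulum, had 43.1 and 48.0 TPM in MSH2KO21B, against 116 and 99.4 TPM in MECPK. It fell by 1.22 on the log2 scale (SE 0.10, limma adjusted p = 0.000432). S100a13 (ENSMUSG00000042312.9, chromosome 3, 90514435 to 90524581, plus strand), which helps cells to release FGF1 and interleukin 1 alpha, proteins without a signal peptide, had 33.7 and 34.7 TPM in MSH2KO21B, against 18.7 and 16.1 TPM in MECPK. It rose by 0.94 (SE 0.09, limma adjusted p = 0.000719). Neither pair of libraries overlapped, and the ratio of S100a1 to S100a13 TPM was 1.28 and 1.38 in MSH2KO21B and 6.18 in both MECPK libraries. The stretch of 104 bases between their RefSeq start sites, shown first above, is therefore shared by a gene that fell and a gene that rose. It overlaps the GENCODE span of S100a1, which ends at 90514392, because the RefSeq start site of S100a1 is at 90514330.

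S100a4 (ENSMUSG00000001020.8, chromosome 3, 90603771 to 90606045) binds the heavy chain of non-muscle myosin IIA and is known as a gene of fibroblasts and of invasive tumor cells. It had 40.6 and 34.4 TPM in MSH2KO21B, against 20.9 and 16.96 TPM in MECPK. The MSH2KO21B libraries were higher without overlap, by 0.95 (SE 0.13, limma adjusted p = 0.00272). S100a4 and S100a13 had overlapping levels within each line, and they were the only neighbors in the order of TPM that overlapped in both. Of 8 fibroblast markers, 7 were under 1 TPM in all 4 libraries, among them Col1a1, Col1a2, Col3a1 and Dcn, and Lum was listed at 0 in all 4. The remaining marker, Pdgfra, had 1.15 and 1.39 TPM in MSH2KO21B, against 0.265 and 0.771 TPM in MECPK, and was called higher, as S100a4 was (0.60, limma adjusted p = 0.0365); it passed the filter only through MSH2KO21B and was not called with quantile-normalized values (-0.18) or median-ratio scaling (0.51). The part of fibroblast RNA in the S100a4 values was not tested. The summed TPM of the 8 was 2.17 and 2.14 in MSH2KO21B and 0.769 and 1.37 in MECPK.

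S100a8 and S100a9 form calprotectin, which binds zinc and manganese and is the main S100 complex of neutrophils; keratinocytes make it under stress. Both genes were low in TPM. S100a9 (ENSMUSG00000056071.12, chromosome 3, 90692632 to 90695721, minus strand) had 3.17 and 4.71 TPM in MSH2KO21B and was listed at 0 in both MECPK libraries. It rose by 2.29 on the log2 scale (SE 0.17, limma adjusted p = 0.00033), a size that depends on the pseudocount, since it was 5.31 with a pseudocount of 0.1. Having passed the filter on low values only through MSH2KO21B, it had to differ between the lines.

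S100a8 (ENSMUSG00000056054.9, chromosome 3, 90668978 to 90670035) had 1.33 and 1.52 TPM in MSH2KO21B, against 0.773 and 1.84 TPM in MECPK. The MSH2KO21B values lay inside the range of the MECPK values. Its difference of 0.11 (SE 0.24) was not called (limma adjusted p = 0.70), its 95% interval ran from -0.54 to 0.76, and its sign turned under both other scalings (-0.55 quantile-normalized, -0.01 median-ratio). Of 14 myeloid markers, 12 were under 1 TPM in all 4 libraries; Mpo, Ngp and Tyrobp were listed at 0 in all 4, and Ptprc, the pan-leukocyte gene, did not exceed 0.06 TPM. The summed TPM of the 14 was 3.52 and 3.65 in MSH2KO21B and 6.41 and 4.91 in MECPK. The lower sum came from Ly6g, at 0.148 and 0 TPM in MSH2KO21B and 2.38 and 1.71 TPM in MECPK, and Cd68, at 2.47 and 2.52 TPM in MSH2KO21B and 3.65 and 2.82 TPM in MECPK. Ly6g was called lower, but it passed the filter only through MECPK, which set its direction. Cd68 was not called, although it was called lower with quantile-normalized values (-0.74) and with median-ratio scaling (-0.43). Other markers ran the other way without overlap, among them Ltf, at 0.587 and 0.262 TPM in MSH2KO21B and 0.104 TPM in both MECPK libraries. The part of myeloid RNA in the S100a9 values was not tested.

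**Figure D3:**
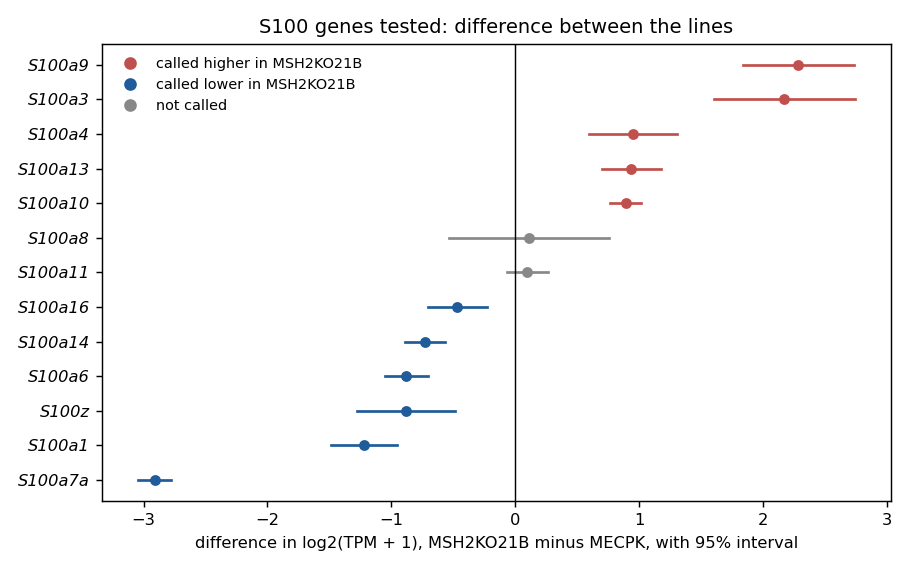
Difference in log2(TPM + 1), MSH2KO21B minus MECPK, with its 95% interval (x axis), for the 13 S100 genes tested, colored by the call. The intervals of S100a8 and S100a11 cross 0; S100a7a is farthest below 0 at -2.91, and S100a9 and S100a3 are farthest above it at 2.29 and 2.17.

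The table held 7 other S100 genes, of which 3 passed the filter and are shown with the members in the plot of differences. S100a7a, a gene of inflamed skin related to psoriasin, had 35.2 and 34.8 TPM in MSH2KO21B, against 262 and 277 TPM in MECPK. With a pseudocount of 1 TPM this was the largest difference of any S100 gene tested, -2.91 (SE 0.05, limma adjusted p = 8.54e-06), with no overlap between the lines. S100a3, known from the hair cuticle, had 30.3 and 30.6 TPM in MSH2KO21B, against 7.63 and 4.64 TPM in MECPK, and rose by 2.17 (SE 0.21, limma adjusted p = 0.000807). Its annotated span encloses S100a2, which had 0.665 and 0.714 TPM in MSH2KO21B and 3.18 and 0.962 TPM in MECPK. S100z had 0.908 and 1.09 TPM in MSH2KO21B, against 3.17 and 2.26 TPM in MECPK, and fell by 0.88 (SE 0.15, limma adjusted p = 0.0049). The remaining genes were low: S100g, which encodes calbindin-D9k, a calcium buffer of the uterus and intestine, had 1.68 and 0.481 TPM in MSH2KO21B and was listed at 0 in MECPK, and S100b and S100a5 stayed under 1 TPM in all 4 libraries.

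Along chromosome 3 the S100 genes fell into a block of 12 genes from S100a1 to S100a9, with start sites over 181 kb, and a pair, S100a11 and S100a10, 2.83 Mb farther on (GENCODE M21 coordinates of GRCm38). Rises and falls were mixed within the larger block. From S100a1 on, the called genes S100a1, S100a13, S100a14, S100a16, S100a3, S100a4, S100a6, S100a7a and S100a9 were lower, higher, lower, lower, higher, higher, lower, lower and higher in MSH2KO21B, with the uncalled S100a8 before S100a9. S100a4, at 89.4 kb, rose while S100a6, at 98.5 kb, fell.

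**Figure D4:**
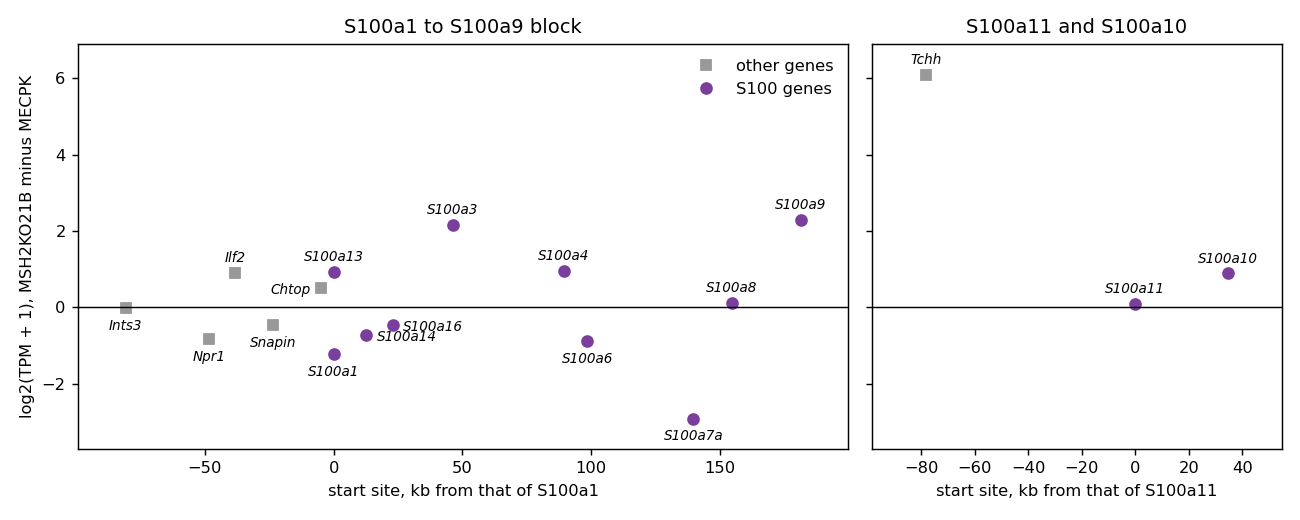
Difference in log2(TPM + 1), MSH2KO21B minus MECPK (y axis), of tested S100 genes (circles) and other protein-coding genes within 100 kb of a member (squares), by the distance of their start sites in kb from S100a1 (left) or S100a11 (right). S100a1 and S100a13 share a position but lie at -1.22 and 0.94, and Tchh at 6.10 is the largest value.

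Of 11 other protein-coding genes within 100 kb of a member, 6 were tested, 3 of them higher and 2 lower in MSH2KO21B, as the map of differences by distance shows, against 46.6% called higher and 29.7% called lower among all genes tested. Under both other scalings the count was 3 higher and 3 lower. Tchh, which encodes trichohyalin, a structural protein of the hair follicle, had 102 and 101 TPM in MSH2KO21B, against 0.505 and 0.481 TPM in MECPK. The RNA-binding protein genes Ilf2 and Chtop differed by 0.92 and 0.50 and were higher, and the receptor gene Npr1 (-0.82) and the SNARE-associated gene Snapin (-0.46) were lower, Npr1 having passed the filter only through MECPK, which set its direction. Ints3 (-0.02) was not called, although it was called lower with quantile-normalized values (-0.17) and with median-ratio scaling (-0.22).

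Tchh belongs to the S100-fused proteins, large proteins of the cornified layer that begin with an S100-type domain. Of 7 such genes, 3 were tested and all 3 rose, against 46.6% called higher among all genes tested. Tchh rose by 6.10 (SE 0.07), Flg, the gene of filaggrin, by 5.35 (SE 0.12), and Rptn, the gene of repetin, by 3.24 (SE 0.08). Their limma adjusted p ran from 4.8e-06 to 1.52e-05. Flg had 44.2 and 35.9 TPM and Rptn 8.32 and 8.58 TPM in MSH2KO21B, and both were listed at 0 in the MECPK libraries. The other 4, Flg2, Hrnr, Tchhl1 and Crnn, stayed under 1 TPM in all 4 libraries. The tested genes passed the filter only through MSH2KO21B, so their direction was set by the filter.

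Annexins, the calcium-dependent membrane-binding proteins that many S100 dimers bridge, moved in both directions. Of 12 genes, 10 were tested, and 3 rose (Anxa2, Anxa5 and Anxa8) while 7 fell, against 46.6% called higher and 29.7% called lower among all genes tested. The median difference of the 10 was -0.69, against 0.19 over all genes tested. Anxa1, the partner of S100a11, had 724 and 703 TPM in MSH2KO21B, against 2074 and 1879 TPM in MECPK, and fell by 1.47 (SE 0.07, limma adjusted p = 7.6e-05). With S100a11 not called, the ratio of S100a11 to Anxa1 TPM was 7.07 and 7.44 in MSH2KO21B and 2.24 and 2.67 in MECPK. Anxa8, a gene of stratified epithelia, had 169 and 171 TPM in MSH2KO21B, against 39.6 and 42.3 TPM in MECPK, and rose by 2.03 (SE 0.05). Anxa5 rose by 1.16, and Anxa3 (-1.13), Anxa11 (-0.94) and Anxa7 (-0.88) fell. Anxa9 (-1.56, limma adjusted p = 0.0437) had the widest interval, with 0.542 and 3.41 TPM in MSH2KO21B, against 6.88 and 6.46 TPM in MECPK.

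**Figure D5:**
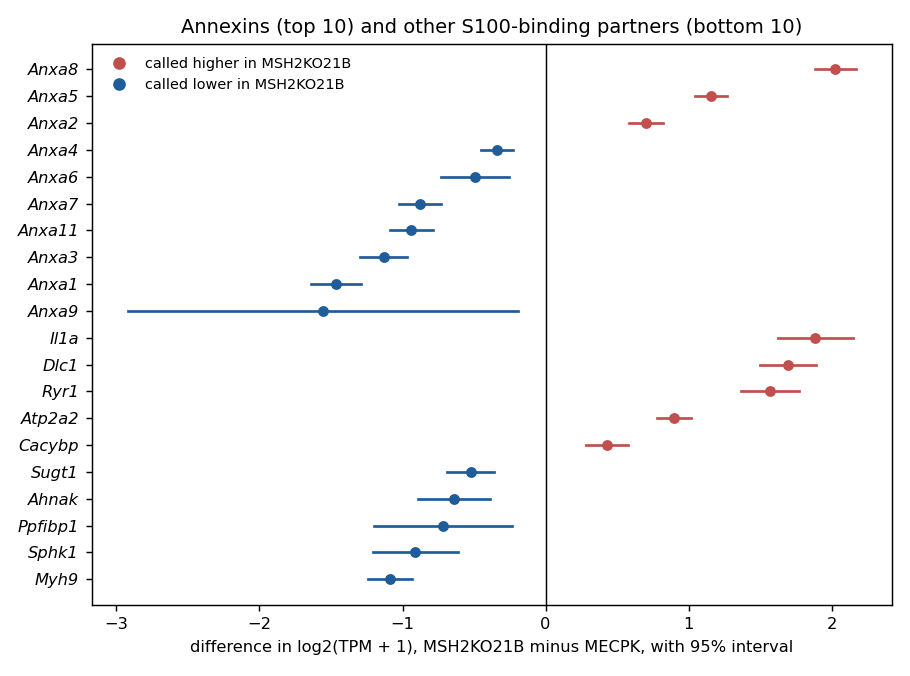
Difference in log2(TPM + 1), MSH2KO21B minus MECPK, with its 95% interval (x axis), for the 10 tested annexin genes and the 10 tested genes of other S100-binding partners, colored by the call. Anxa8 at 2.03 and Anxa9 at -1.56 mark the ends of the annexins, and Il1a at 1.89 and Myh9 at -1.09 those of the other partners.

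Of 16 other genes of proteins that bind an S100 protein or act with one, 10 were tested, and 5 rose while 5 fell, with a median difference of -0.05. Among all genes tested 76.2% were called. The rises include Ryr1, a ryanodine receptor gene, at 2.00 and 2.02 TPM in MSH2KO21B and 0.0131 and 0.0168 TPM in MECPK, which passed the filter only through MSH2KO21B. Myh9, the myosin heavy chain bound by S100a4, had 105 TPM in both MSH2KO21B libraries, against 216 and 235 TPM in MECPK, and fell by 1.09 (SE 0.06, limma adjusted p = 0.000122), the opposite direction to S100a4. Cacybp, the partner of S100a6, had 245 and 251 TPM in MSH2KO21B, against 190 and 177 TPM in MECPK, and rose by 0.43 (SE 0.05, limma adjusted p = 0.00185), again opposite to its partner. The ratio of S100a6 to Cacybp TPM was 18.3 and 16.7 in MSH2KO21B and 42.8 and 43.8 in MECPK. Sugt1, another gene of the list, had 31.1 and 31.9 TPM in MSH2KO21B, against 47.5 and 44.1 TPM in MECPK. It fell by 0.52 (SE 0.06, limma adjusted p = 0.00146), the same direction as S100a6. Atp2a2, the calcium pump on which S100a1 acts in muscle, rose by 0.90. Among the others at 10 TPM or more, Dlc1, whose product S100a10 binds, rose by 1.70, while the lipid kinase gene Sphk1 (-0.91), the liprin gene Ppfibp1 (-0.72) and Ahnak (-0.64), whose product binds the S100a10 and annexin A2 complex, fell. Of the cargo that S100a13 helps to release, Il1a had 9.08 and 9.95 TPM in MSH2KO21B and 1.69 and 2.00 TPM in MECPK, and Fgf1 stayed under 1 TPM.

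Receptors of released S100 proteins were mostly low. Of 6 genes, 4 were tested, with 1 higher, 2 lower and 1 not called, against 76.2% called among all genes tested. Ager, which encodes RAGE, stayed under 1 TPM in all 4 libraries, at 0.776 and 0.808 TPM in MSH2KO21B and 0.447 and 0.348 TPM in MECPK. Tlr4 had 0.819 and 0.818 TPM in MSH2KO21B, against 5.30 and 4.92 TPM in MECPK, and fell by 1.75 (SE 0.08, limma adjusted p = 8.68e-05); it passed the filter only through MECPK, which set its direction. Its co-receptor genes moved apart: Cd14 (-1.21) fell and Ly96 (0.92) rose. Bsg, a receptor proposed for S100a9, had 488 and 467 TPM in MSH2KO21B and 449 and 442 TPM in MECPK and was not called (difference 0.10, limma adjusted p = 0.109, and -0.12 with median-ratio scaling).

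The genes nearest to the 3 most abundant members, by Euclidean distance over the 4 log2(TPM + 1) values, were other abundant genes. For S100a6 they were Eef1a1 at a distance of 0.62, Actb at 0.66 and Rps29 at 0.73. S100a11 was nearest to the gene models Gm10491 (0.12) and Gm17571 (0.51) and to Rps29 (0.43), and S100a10 to Gm10160 (0.42), mt-Nd3 (0.56) and mt-Nd1 (0.62). All 4 libraries come from 2 lines, so these distances compare few independent points.

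Epithelial identity differed between the lines beside these values, and its part in the S100 differences was not tested. The summed TPM of 7 markers of stratified epithelium was 13089 and 12803 in MSH2KO21B, against 4.54 and 4.49 in MECPK. Of these, Krt15, Krt17, Krt6a, Trp63 and Dsg3 were under 1 TPM in both MECPK libraries and passed the filter only through MSH2KO21B, which set their direction. All 7 were called higher, against 46.6% of all genes tested. With quantile-normalized values 6 were called higher, and Krt15 was not (limma adjusted p = 0.436). The summed TPM of 6 markers of simple epithelium was 345 and 333 in MSH2KO21B, against 5290 and 5233 in MECPK, with 5 called lower and Cdh1 higher, against 76.2% called among all genes tested. Of 9 Mullerian and endometrial markers, 3 were at 1 TPM or more in each MSH2KO21B library and 5 in each MECPK library, and Pgr, Hoxa10 and Hoxa11 were listed at 0 in all 4. Their summed TPM was 16.7 and 15.5 in MSH2KO21B, against 98.4 and 96.4 in MECPK. Of the 5 tested, 1 was called higher and 4 lower, against 46.6% and 29.7% of all genes tested. The higher one was Esr1 (0.67, limma adjusted p = 0.00317), which was not called with quantile-normalized values (limma adjusted p = 0.261). Pax2 and Foxa2 passed the filter only through MECPK, which set their direction.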

How the data were processed

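RNA of 4 libraries, 2 of each line, was analysed from 1 deposited table. The submitters' processing notes name kallisto 0.43.1 and build GRCm38. The authors deposited TPM for 61440 Ensembl transcripts, and each column sums to 1000000. The sources used here state no transcript set, options, fragment length or depth. IDs without versions were paired with GENCODE M21 (60503 matched), and TPM was summed per gene. Of 5174 pairs of transcripts of a gene with the same coding sequence and values above 0, 99.8% had equal values in all 4 libraries (within 1 part in 10000), against 0.395% of 21755 pairs with different ones, so untranslated regions did not separate transcripts. Coding sequences of the members are short (S100a6 267 bases), and TPM of short sequences depends on the assumed fragment length.

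Libraries were grouped by title. Genes reaching 1 TPM in 2 or more libraries entered a limma 3.58.1 fit (R 4.3.3) of log2(TPM + 1), with a variance trend and the line as the only term. The fit had 2 residual degrees of freedom. A run of the fit on simulated data had few changed genes, unlike these data, so it says little of the calls here. The members and lists were chosen with earlier results of these data known. Genes named outside the S100 family were, per list, up to 6 called genes reaching 10 TPM in the higher line, by size of difference, and up to 6 neighbors. Anxa2, Anxa9, Cacybp, Sugt1, Il1a, Fgf1, Tlr4, Ager, Bsg and Rptn were named after their values were seen. Ryr1 and low cell-type markers such as Pdgfra, Ly6g, Cd68, Ltf, Esr1 and Foxa2 were also named outside that rule. Alternatives varied the trend, scaling, filter, pseudocount, replicate block, transcripts summed, mitochondrially encoded genes and the libraries used.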

Additional observations from a re-analysis of the deposited data

How the results depend on the processing

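Under the 13 alternatives, the 8 called members kept their direction and their call wherever they were tested. Log2 differences ran from -1.43 to -1.11 for S100a1, -1.10 to -0.82 for S100a6, -0.94 to -0.66 for S100a14, -0.68 to -0.36 for S100a16, 0.74 to 1.10 for S100a4, 0.68 to 0.92 for S100a10, 0.73 to 1.04 for S100a13 and 2.05 to 5.31 for S100a9. S100a9 was not tested with a filter of 10 TPM or without either MSH2KO21B library, and S100a8 not with that filter. S100a9 was listed at 0 in both MECPK libraries, which set its direction, so its steady direction adds nothing. S100a8 and S100a11, not called under any alternative, changed sign: S100a8 was -0.55 with quantile-normalized values and -0.0114 with median-ratio scaling and ran from -0.23 to 0.45 with a library left out, and S100a11 was -0.12 after median-ratio scaling. The cause was not tested. Counts of all genes called ran from 6613 to 10052, fewest with the filter of 10 TPM. With the replicate block 9113 genes and the same numbers of members, 4 higher and 4 lower, were called. A block that paired libraries of unlike number gave 8943 genes. Deviations of same-numbered libraries correlated with r = 0.016 across genes. With so few libraries this cannot show whether same-numbered libraries shared a culture or a preparation, which the labels do not say. Depth is unknown, which leaves values near 1 TPM, such as those of S100a8, without a counting error.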
